A study of Drosophila melanogaster with 6 samples.

Results

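The genes described here build, elongate, bundle, cap and take apart linear actin filaments: the formins dia, DAAM and capu, the Ena/VASP gene ena, the profilin gene chic, the cofilin gene tsr, the bundling genes sn and Fim, and the capping protein genes cpa and cpb. They were matched by symbol and gene ID, and all 10 were found among the 17411 genes with an FPKM value (a read number scaled to transcript length and to the mapped reads of the library). RNA was sequenced from Drosophila leg discs at 0 h APF (after puparium formation) in 3 libraries of GFP+ cells and 3 libraries of input cells, which the labels call control. Both groups came from the same sr-gal4>UASGFP animals, and the study's methods give the transgene as UAS-Lifeactin.GFP with sr-gal4 over the TM6b balancer. sr-gal4 is an insertion in stripe, the gene of tendon fate, so that GFP marks the tendon precursors, and all animals carried it. Input cells were sorted without regard to fluorescence, so they hold GFP+ cells too, along with the rest of the disc epithelium and the myoblasts. Lifeact is a peptide that binds actin filaments, and since the cells sorted as GFP+ are those that make it, the reporter and the cell type cannot be told apart for any actin gene below. Discs of many pupae were pooled before sorting.

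The deposited values are 1 FPKM per group with a lower and an upper confidence bound, so the values of single libraries are not analysed here, no SD over libraries can be given and no test between libraries was run. A gene is called higher or lower below only where its confidence bounds in GFP+ cells and in input cells do not overlap. Of 11783 genes with an FPKM above 0 in both groups, 15.9% were called by this rule, 6.19% as higher and 9.75% as lower in GFP+ cells. At a level above 10 FPKM in the higher group, which 6342 genes reached, 23.2% were called, 6.97% as higher and 16.3% as lower. The depth of each library was not recovered here; the mean normalized counts, averaged over all 6 libraries, summed to about 31652200 over all genes, and those of the 10 genes lay between 2031 and 41146. Counting error on such numbers is between 0.201% and 0.906% over the 6 libraries together, while the confidence bounds of the 10 genes lay 18.7% to 23.7% on either side of the FPKM, so the bounds and not the read number limit these comparisons. The tendon genes sr, Tsp, Lrt, drm, dar1 and odd were all higher in GFP+ cells, with bounds apart for all 6. The sorted reporter is driven from stripe (sr), and the study picked drm, dar1 and odd as enriched in these same data. For those genes the result is therefore no independent check of the label. Their summed FPKM was 909 in GFP+ cells against 194 in the input.

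An actin filament grows mainly at its barbed end. Formins nucleate straight filaments and stay on the growing end, Ena/VASP proteins elongate filaments and hold off capping protein at the tips of filopodia, and profilin hands actin monomers to both. Capping protein stops growth, cofilin severs and depolymerizes old filaments, and fascin and fimbrin bind parallel filaments into bundles such as those of filopodia. Folding epithelia and cells with filopodia use these proteins, and the tendon precursors of the leg form long internal tubes to which muscles attach.

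ena was called lower in GFP+ cells, none of the 10 genes was called higher, and 9 had overlapping bounds. This count of 1 called gene among 10 stands beside 15.9% of all genes and 23.2% of genes at an FPKM above 10, so it is no more than the share called over all genes. tsr lay above the input and ena below it by more than 1.5-fold, a size that 24.2% of all genes passed upward and 23.3% downward. By the point values, 6 of the 10 genes lay below the input and 4 above it, with ratios between 0.595 for ena and 1.53 for tsr. The median log2 ratio of GFP+ over input was -0.06 for the 10 genes and 0.06 for all genes measured. Together the 10 genes summed to 3250 FPKM in GFP+ cells against 2736 in the input, and tsr and chic made up most of it.

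**Figure D1:**
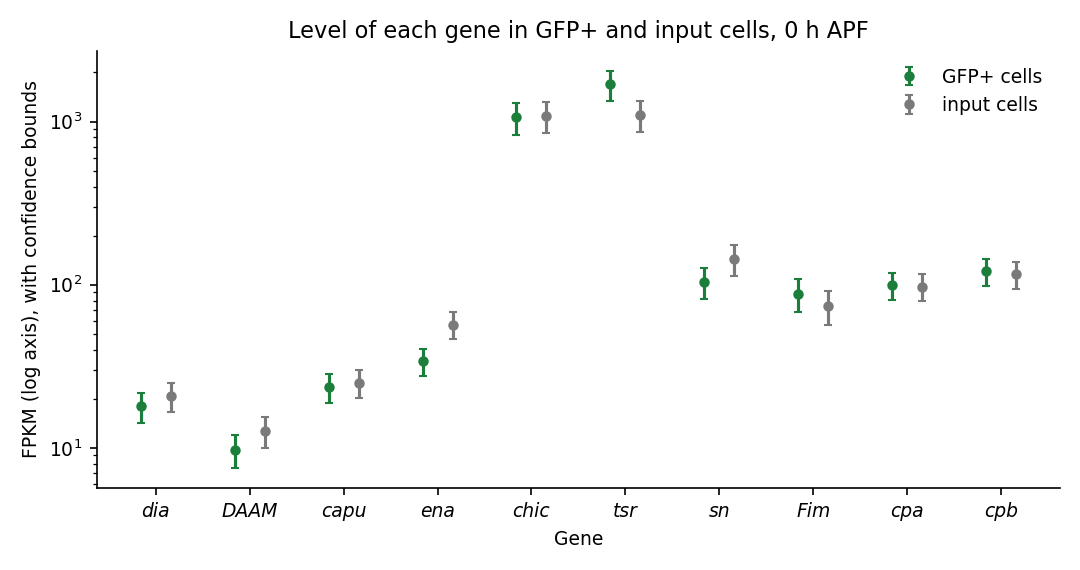
FPKM of each gene on a log axis in GFP+ cells (green) and input cells (grey); points are the deposited group values and bars the deposited confidence bounds. The bounds of ena do not overlap between the groups, those of tsr overlap narrowly, and chic and tsr stand far above the other 8 genes in both groups.

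The 3 formin genes were expressed at low to middle levels and lay slightly below the input. When the trend over transcript length described below was subtracted, their log2 ratios lay above 0. dia encodes Diaphanous, a formin that acts in cytokinesis and at cell junctions. The gene spans 20758144 to 20768053 on 2L, plus strand, in the dm6 build, which holds for all positions given here. dia stood at 18.0 FPKM (bounds 14.3 to 21.7) for GFP+ cells against 20.8 FPKM (16.5 to 25.0) for the input. These bounds overlap over most of their range, and the ratio was 0.868, with 0.572 to 1.31 allowed by the bounds. DAAM encodes a formin of the tracheal cuticle, axons and muscle sarcomeres, and lies on the minus strand of chromosome X from 1289713 to 1322362. DAAM had the lowest level of the 10 genes, with 9.75 FPKM (7.54 to 12.0) for GFP+ cells against 12.7 FPKM (10.1 to 15.4) for the input, or a ratio of 0.767 (0.490 to 1.19). The bounds of the groups overlap for DAAM as well, and 49.6% of measured genes had a level in GFP+ cells at or below that of DAAM. Of 4 tracheal genes, none was called higher and trh and vvl were called lower. The summed FPKM of the 4 was 93.6 for GFP+ cells against 169 for the input, with none at 0. The largest part of that sum was uif, at 70.1 against 104, while btl had 0.0918 against 0.678. The part of tracheal cells in the level of DAAM was not tested. capu encodes Cappuccino, a formin best known from the oocyte, where it builds an actin mesh together with Spire, and lies on the minus strand of 2L from 3872646 to 3902860. capu stood at 23.7 FPKM (18.9 to 28.4) for GFP+ cells against 25.0 FPKM (20.1 to 29.9) for the input, or a ratio of 0.947 (0.634 to 1.41). capu was therefore the most abundant of the 3 formin transcripts in both groups, at 46.0% of their summed FPKM in GFP+ cells and 42.8% in input cells, ahead of dia at 35.0% and 35.5% and of DAAM at 19.0% and 21.7%. The bounds of capu and dia overlap in each group, while those of dia and DAAM do not, so that DAAM is the lowest formin of the 3 in both groups and the order of the other two is not separated.

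ena was the gene of this set whose bounds stood apart between the groups. Enabled binds profilin, elongates filaments and localizes to filopodial tips. It lies on the plus strand of chromosome 2R from 19141632 to 19163705, with 7 annotated transcripts. ena stood at 33.9 FPKM (27.5 to 40.4) for GFP+ cells against 57.0 FPKM (46.2 to 67.8) for the input, with a gap of 5.85 FPKM between the nearest bounds. Its ratio was 0.595 (0.405 to 0.873), a log2 ratio of -0.75, and 18.2% of all genes had a ratio at or below it. Set against the formins, ena had 0.659 times their summed FPKM in GFP+ cells and 0.975 times in input cells. In input cells ena stood next to Fim, whose bounds it overlaps, and its bounds were apart from those of capu. In GFP+ cells it stood next to capu, whose bounds it overlaps, and its bounds were apart from those of Fim. ena has long transcripts, and with the trend over transcript length described below its log2 ratio was -0.30 and its bounds overlapped. Myoblast markers moved in the same direction: all 11 of a list of myoblast genes lay below the input and 8 were called lower, their summed FPKM was 83.0 in GFP+ cells against 265 in the input, and none was at 0 in either group. The part of myoblasts in the lower level of ena was not tested. In bulk RNA, fewer cells of a type and less RNA per cell cannot be told apart.

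chic and tsr, which serve monomer supply and filament disassembly, were by far the most abundant transcripts of the set. chic encodes profilin, on the minus strand of 2L from 5972115 to 5981018. chic stood at 1062 FPKM (829 to 1294) for GFP+ cells against 1087 FPKM (847 to 1327) for the input, or a ratio of 0.977 (0.625 to 1.53). The groups are nearly level for chic, which ranked 133 among all genes in GFP+ cells and 120 in input cells. tsr encodes Twinstar, the cofilin of the fly, on the minus strand of 2R from 24044453 to 24046805. tsr stood at 1690.1 FPKM (1328 to 2052) for GFP+ cells against 1102 FPKM (862 to 1343) for the input, or a ratio of 1.53 (0.989 to 2.38). The bounds meet only at their edges, between 1328 and 1343 FPKM. When the difference was set against the half-widths of both groups combined in quadrature, a rule chosen after the data had been seen that calls 10.5% of all genes as higher and 13.6% as lower, tsr was higher in GFP+ cells and ena and sn were lower, while the other 7 genes were not called. With the length trend or with scaling to the sum of FPKM, the log2 ratio of tsr was 0.19 and 0.18 in place of 0.62.

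The balance of profilin and cofilin transcripts differed in its point value between the groups. chic had 0.628 times the FPKM of tsr in GFP+ cells and 0.986 times in input cells. In GFP+ cells the bounds of chic and tsr are apart, with tsr higher, and in input cells they overlap almost fully. The difference between these ratios was not tested, since it would need the single libraries. The transcripts differ in length, with medians of 1338.5 bases for chic and 735 for tsr, and the mean normalized count was higher for chic, at 41146 against 25454. With the length trend subtracted, the log2 ratio of GFP+ over input was -0.24 for chic and 0.19 for tsr, in place of -0.03 and 0.62. Against actin itself, taken as the summed FPKM of the cytoplasmic actin genes Act5C and Act42A (7177 in GFP+ cells against 5197 in the input), tsr stood at 23.5% in GFP+ cells against 21.2% in the input, and chic at 14.8% and 20.9%. The bounds of Act5C were 3189 to 8087 FPKM for GFP+ cells against 2657 to 5730 FPKM for the input, and this denominator is itself not separated between the groups. cib, which encodes the monomer-binding protein Ciboulot and was chosen after its values were seen, had a level that overlapped that of chic, with 1108 FPKM in GFP+ cells against 1203 in the input.

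The bundling genes lay on opposite sides of the input, or both below it with scaling to the sum of FPKM. Neither had bounds apart on the deposited scale, while sn was called lower with that scaling and with the combined half-widths. For that scaling the share of all genes called was not computed. sn encodes Singed, the fly fascin, which bundles filaments in filopodia and bristles and lies on the plus strand of X from 7964024 to 7986601. sn stood at 104 FPKM (82.2 to 127) for GFP+ cells against 144 FPKM (113 to 174) for the input, or a ratio of 0.727 (0.472 to 1.12). Fim encodes fimbrin, another bundling protein, on the minus strand of X from 17285704 to 17301929. Fim stood at 88.1 FPKM (68.0 to 108) for GFP+ cells against 74.2 FPKM (56.6 to 91.8) for the input, or a ratio of 1.19 (0.740 to 1.91). In GFP+ cells the levels of sn and Fim were not separated, at a ratio of 1.19. In input cells sn stood at 1.94 times Fim with bounds apart. sn is also known from bristle cells and hemocytes. Of 8 neuron and sensory organ genes, 2 (nSyb and Syt1) were called higher in GFP+ cells and none lower, and 4 lay above the input and 4 below. nSyb had 13.7 FPKM in GFP+ cells against 2.29 in the input, and Syt1 4.27 against 1.66. The summed FPKM of the 8 was 81.4 in GFP+ cells against 93.9 in the input, with none at 0. The largest part of that sum was sca, at 37.0 against 47.8. Of 8 hemocyte genes, 6 had a level above 0 in both groups and none was called. Of the 8, 6 lay below the input and 2 (crq and Nplp2) above it. Nplp2 had 4.65 FPKM in GFP+ cells against 1.12 in the input, with overlapping bounds. The summed FPKM of the 8 was 24.1 in GFP+ cells against 20.2 in the input. Most of that sum was crq, a scavenger receptor that is not confined to hemocytes, while eater and He were listed at 0 in GFP+ cells and none was at 0 in input cells. Hml, a defining hemocyte gene, was at 0.0138 in GFP+ cells against 0.128 in the input. The part of these cell types in the level of sn was not tested.

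The capping protein genes did not separate between the groups, and their proportion to each other was nearly level. Their own ratios lay just above 1, and below 1 with scaling to the sum of FPKM. Capping protein works as a heterodimer of an alpha subunit, encoded by cpa, and a beta subunit, encoded by cpb, which lie on the plus strands of 2R from 21057787 to 21059883 and of 2L from 1704902 to 1706962. cpa stood at 99.3 FPKM (80.5 to 118) for GFP+ cells against 97.4 FPKM (79.0 to 116) for the input, or a ratio of 1.02 (0.695 to 1.49). cpb stood at 121 FPKM (98.1 to 143) for GFP+ cells against 116 FPKM (94.3 to 138) for the input, or a ratio of 1.04 (0.711 to 1.52). Their log2 ratios of 0.03 and 0.06 are close to the median of all genes, and the bounds leave room for a change of up to about 1.5-fold in either direction. cpa stood at 0.823 times cpb in GFP+ cells and 0.839 times in input cells, with overlapping bounds of the subunits in both groups.

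**Figure D2:**
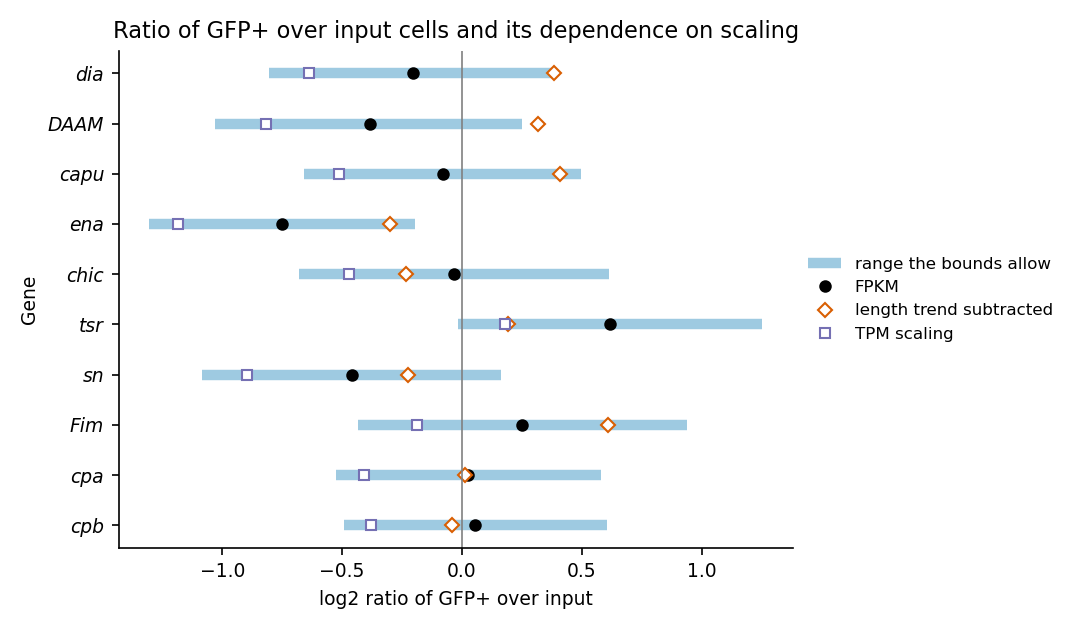
log2 ratio of GFP+ over input cells for each gene, as the ratio of FPKM (black points) with the range that the confidence bounds allow (blue bars), after subtraction of the length trend (orange diamonds) and with each group scaled to its summed FPKM (purple squares). The bar of ena alone lies wholly on one side of 0, and the formins change side when the length trend is subtracted.

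Longer transcripts had lower ratios across all genes. Over the 7992 genes with an FPKM above 1 in both groups and an annotated length, median transcript length and log2 ratio gave a rank correlation (Spearman) of -0.55, a description across genes that share the same libraries. The median log2 ratio was 0.46 for genes with transcripts of up to 1000 bases and -0.78 for genes with transcripts over 5000 bases. The formins and ena have long transcripts, with medians of 5344 bases for DAAM, 4465 for dia, 3861 for capu and 3669 for ena, while that of tsr has 735 bases. When the trend was subtracted, the log2 ratio was 0.38 for dia, 0.32 for DAAM, 0.41 for capu and 0.61 for Fim, all above genes of their own length, and it was -0.30 for ena, -0.23 for sn and -0.24 for chic. By this measure 6 of the 10 genes lay above 0 and 4 below, and no bounds were apart. The sign changed for 4 genes, namely dia, DAAM, capu and cpb. The whole-disc comparison therefore gives the formins as slightly lower or as slightly higher depending on whether genes of like length are the standard. The log2 ratio of ena was below 0 by either standard, as were those of sn and chic. With the length trend subtracted the bounds of ena overlapped.

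**Figure D3:**
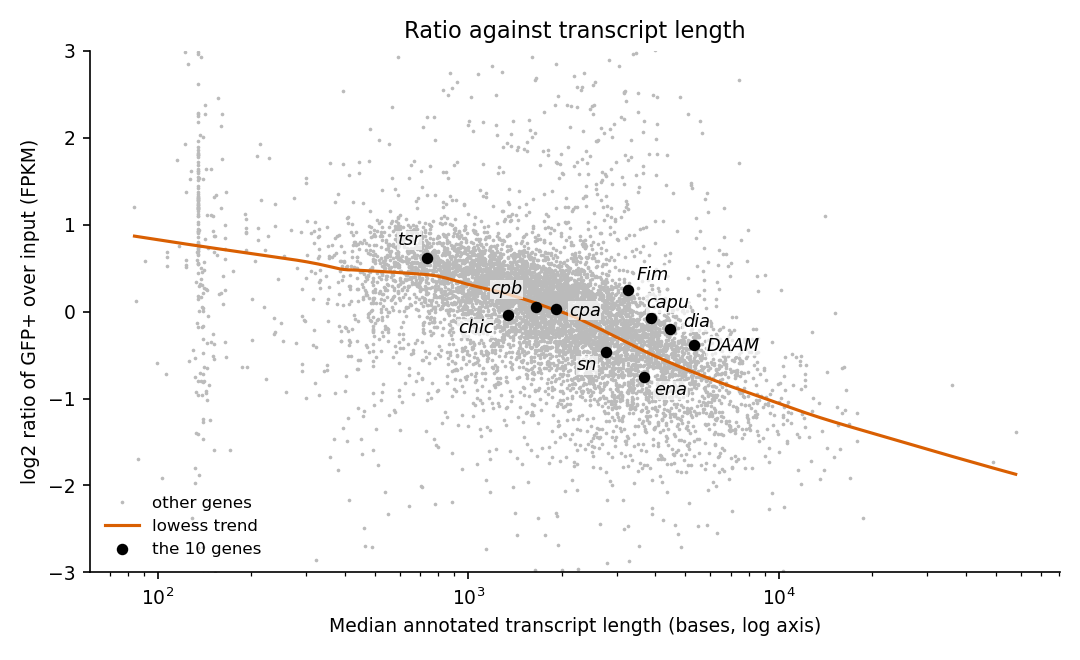
log2 ratio of GFP+ over input cells against the median annotated transcript length of each gene, both for the 10 genes (black, labelled) and for all other genes with an FPKM above 1 in both groups (grey), with the lowess trend (orange). The formins and Fim lie above the trend and ena, sn and chic below it; 77 genes with a log2 ratio beyond 3 in size are outside the axis.

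The FPKM of all genes summed to 1.35 times as much in GFP+ cells as in input cells. Scaling each group to its own sum lowers every log2 ratio by the same amount, and the value of the all-gene median falls by 0.44 with it, so the place of each gene relative to other genes is unchanged. On that scale 9 of the 10 genes lay below the input and tsr alone above it, and cpa, cpb and Fim changed sign. By their bounds dia, DAAM, ena and sn were then called lower. The share of all genes called on that scale was not computed, so these calls cannot be set beside it. Exons of a few of these genes overlap other genes. Those of tsr share 6 bases with IntS1, those of cpa 104 bases with CG15653 and those of sn 119 bases with sws, all on the opposite strand and all at an FPKM of 21.6 or less. Strand was not stated for the libraries.

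In the wider actin machinery, calls of lower genes outnumbered those of higher ones, as they did among all genes. The 6 lists of related genes held 48 symbols, of which 47 were found and measured. In all, 3 were called higher in GFP+ cells, 11 were called lower and 33 had overlapping bounds, with a median log2 ratio of -0.12. Among all genes 6.19% were higher and 9.75% lower, and among genes above 10 FPKM, as most of these are, 6.97% and 16.3%. Calls also vary with length: of 902 genes with transcripts of 3000 to 4000 bases, 38 were called higher and 217 lower. Calls with the length trend subtracted were not made for the lists. In the list of monomer and filament turnover genes, flr, which encodes the cofilin partner Aip1, was called higher, with 127 FPKM (103 to 151) for GFP+ cells against 84.7 FPKM (68.8 to 101) for the input. capt, which encodes the cyclase-associated protein that recycles cofilin-bound monomers, had 321 FPKM (256 to 386) for GFP+ cells against 225 FPKM (181 to 269) for the input. twf, which encodes the monomer-binding protein Twinfilin, had 40.0 FPKM (30.1 to 49.9) for GFP+ cells against 27.6 FPKM (20.2 to 34.9) for the input. The bounds of capt and twf overlap, and both genes were picked for mention after their values were seen. With the combined half-widths both were called higher, and this list had 3 genes called higher and 3 lower. By that rule 10.5% of all genes were called higher and 13.6% lower. pod1, a coronin family gene, was called lower, with 40.8 FPKM in GFP+ cells against 69.4 in the input. LIMK1, whose kinase inactivates cofilin, was lower as well, with 7.44 FPKM (5.65 to 9.23) for GFP+ cells against 12.6 FPKM (9.80 to 15.3) for the input. By their bounds, 1 of the 11 genes of this list was called higher, 2 lower and 8 neither. The median log2 ratio was -0.12, or 0.26 with the length trend subtracted. LIMK1 had no annotated length and is missing from the 0.26.

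Genes around Ena lay below the input, although pico and Vinc lay above 0 with the length trend subtracted. Of 6 measured genes of this list, none was called higher and 3 were called lower, where 16.3% of genes above 10 FPKM were called lower. All 6 lay below the input with a median log2 ratio of -0.60, against 0.06 for all genes. The transcripts of this list are long, with a median of 3378.5 bases, and with the length trend subtracted the median log2 ratio was -0.17. Abl encodes the tyrosine kinase that acts against Ena, and had 12.7 FPKM in GFP+ cells against 26.9 in the input with bounds apart. Zyx encodes Zyxin, a protein of adhesions and junctions that binds Ena, and had 46.7 FPKM (32.3 to 61.0) for GFP+ cells against 87.7 FPKM (70.4 to 105) for the input. Lasp, a LIM and SH3 domain protein of actin filaments, had 13.8 in GFP+ cells against 24.3 in the input. pico, the fly gene of the Lamellipodin family that also binds Ena, was chosen after its values were seen and had overlapping bounds, with 47.5 in GFP+ cells against 61.7 in the input. The log2 ratio of Zyx stayed at -0.91 with the length trend subtracted, while that of Abl was -1.08 before and -0.31 after. The same myoblast genes that lay below the input move with this list too, and their part in it was not tested.

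Among other formins and their partners, form3 was called lower, with 4.07 FPKM (2.77 to 5.38) for GFP+ cells against 8.80 FPKM (6.67 to 10.9) for the input, and the bounds of Frl, Fhos and spir overlapped. form3 is below the level of 10 set for naming and is named because it was the sole gene called in its list of 4. Among all genes 9.75% were called lower. Frl had the highest level of the formin genes listed, with 26.4 FPKM in GFP+ cells against 33.3 in the input, though its bounds overlap those of capu in each group, and it too was chosen after its values were seen.

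Other bundling and cross-linking genes had 2 of 8 members called lower and none higher, with a median log2 ratio of -0.34, or 0.27 with the length trend subtracted. Among all genes 9.75% were called lower, and 16.3% among genes above 10 FPKM, a level that 5 of the 8 reached. Tm1, a tropomyosin gene, stood at 204 FPKM (164 to 243) for GFP+ cells against 319 FPKM (257 to 382) for the input, and jbug, a filamin-type cross-linker, had 65.6 FPKM (51.2 to 80.0) for GFP+ cells against 108 FPKM (84.5 to 132) for the input. The Arp2/3 and WAVE genes, which build branched and not linear networks, had the highest median of the 6 lists before the length trend was subtracted. It was 0.36, against -0.06 for the 10 genes, and no test of this difference was run. Of 12 genes, 2 subunits of the Arp2/3 complex were called higher, where 6.19% of all genes and 6.97% of genes above 10 FPKM were. Arpc4 had 203 FPKM (159 to 246) for GFP+ cells against 115 FPKM (88.1 to 142) for the input. Arpc3A had 112 FPKM (88.9 to 135) for GFP+ cells against 69.7 FPKM (53.8 to 85.6) for the input. Arp2, also a subunit of the complex, was called lower, with 62.6 FPKM (50.6 to 74.6) for GFP+ cells against 101 FPKM (82.1 to 120) for the input. The transcripts of this list are shorter, with a median length of 1784 bases against 3022.5 for the 10 genes, and with the length trend subtracted the medians were 0.24 and 0.10. On that scale the list was no longer the highest, since the median was 0.41 for the other formins and their partners, 0.27 for the other bundling genes and 0.26 for the turnover genes. Arpc4, with a log2 ratio of 0.82, and LIMK1 of the turnover list, at -0.76, had no annotated length and are missing from these medians.

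**Figure D4:**
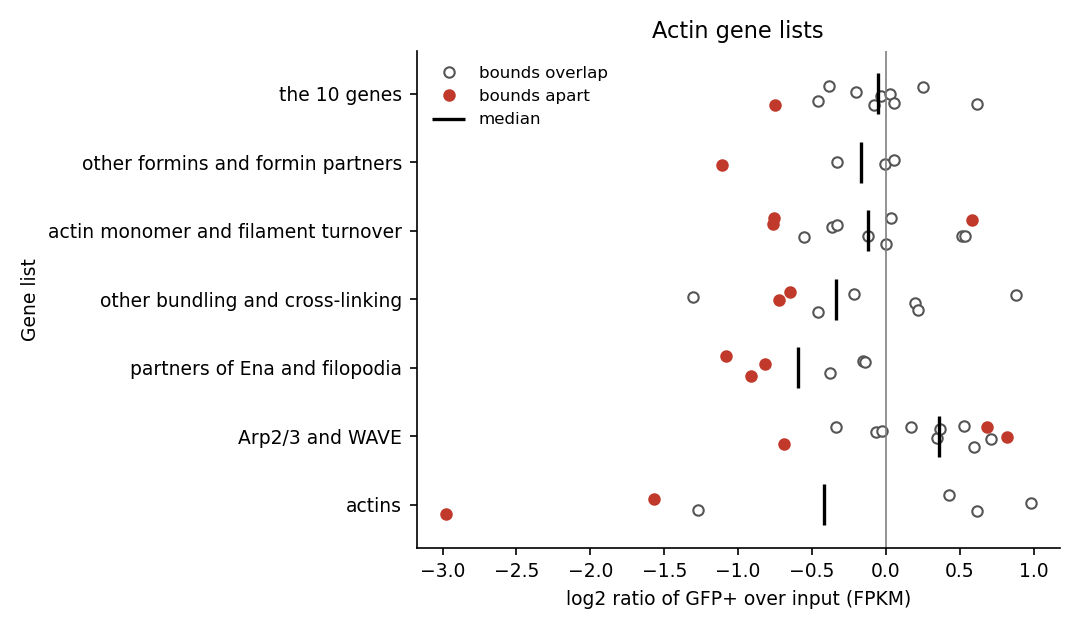
log2 ratio of GFP+ over input cells for the 10 genes and for 6 lists of actin genes; filled points have confidence bounds that do not overlap, open points have overlapping bounds, and the black bar is the median of each list. The partners of Ena lie wholly below 0 on this scale, before any length trend is subtracted, and the Arp2/3 and WAVE list has the highest median on the same scale.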

How the data were processed

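The authors trimmed single-end reads from oligo-dT libraries (Trimmomatic 0.32) and then mapped them with Bowtie2 2.1.0 on the dm6 build. Tool versions are those of the submitters' processing notes. What the authors deposited as FPKM is 1 value for each group, flanked by bounds and laid out as Cufflinks 2.2.1 does, although the study's methods name DESeq2 for FPKM; the level of the bounds and the annotation are not given in the sources used here. The bounds are kept as other values, in FPKM, as the authors deposited them. The authors also deposited mean normalized counts (a signal value over all libraries) beside the fold changes, standard errors and p-values of their own DESeq2 1.2.8 comparison, and these comparison columns were not used.

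Ratios of FPKM were computed with no pseudocount for 11783 genes with an FPKM above 0 in both groups and an OK status; 10 genes with another status were left out. A gene was called where its bounds did not overlap. Alternatives were a pseudocount of 1, an FPKM above 10, centring on the median, a ratio past 1.5-fold, that ratio together with separate bounds, and a lowess trend with transcript length (span 0.3, Ensembl 115 annotation of dm6, lengths for 11575 genes). Scaling to summed FPKM and the combined half-widths were added after the data had been seen. The call and the trend were tested on data with known changes. The 10 genes and all lists were chosen with earlier results of these data known. A further list is not reported here. Named list genes have bounds apart and an FPKM above 10, at most 4 a list; all other list genes were named after their values had been seen. Python 3.11.15, pandas 2.3.3, numpy 2.4.6, statsmodels 0.14.6 and matplotlib 3.10.9 were used.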

Additional observations from a re-analysis of the deposited data

How the results depend on the processing

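No paired analysis was possible because the tables hold 1 value per group and none per replicate, and for the same reason no replicate could be left out. The count of genes called lower, 1 in the comparison of bounds, was 0 with the length trend subtracted and 2 with the combined half-widths (ena and sn). With scaling to summed FPKM it was 4 (dia, DAAM, ena and sn). No share of all genes called was computed for that scaling or for the length trend. The count called higher, 0 by bounds, was 1 (tsr) by a ratio past 1.5-fold and 1 (tsr) with the combined half-widths. The median log2 ratio of the 10 genes was -0.06, and -0.49 with scaling to summed FPKM. It was -0.11 with centring on the median of all genes and 0.10 with the length trend subtracted. The pseudocount of 1 and the level of 10 left both counts at 0 and 1, and so did centring on the median of all genes, under which cpa and cpb changed sign. ena kept a negative log2 ratio under each of these settings. With bounds of about 20% on either side, ratios nearer to 1 than about 1.5-fold could not be separated for most of these genes.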

Other observations

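Among the 6 actin genes, the muscle actin genes Act87E and Act57B had bounds apart and the other 4 did not. Act87E stood at 2.07 FPKM (0.785 to 3.36) for GFP+ cells against 16.3 FPKM (11.8 to 20.8) for the input, and Act57B had 6.78 FPKM (4.10 to 9.47) for GFP+ cells against 20.1 FPKM (14.9 to 25.4) for the input. Both were called lower, with log2 ratios of -2.98 and -1.57, where 9.75% of all genes and 16.3% of genes above 10 FPKM were called lower. Of the cytoplasmic genes, Act42A had 1539 FPKM (1184 to 1895) for GFP+ cells against 1003 FPKM (791 to 1216) for the input, or a ratio of 1.53 with narrowly overlapping bounds, the same ratio as that of tsr. Act42A was called higher with the combined half-widths, and it was chosen after its values were seen. Act79B and Act88F, which are muscle actin genes too, were below 1 FPKM in both groups. The myoblast genes twi and Him had 2.56 and 1.97 in GFP+ cells, against 29.0 and 36.9 in input cells, and their part in the lower level of Act87E and Act57B was not tested.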
